A study of Mus musculus with 6 samples.

Results

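Serpins are a family of serine protease inhibitors, and the rows of a mouse liver count table whose gene symbol is Serpin followed by a clade letter from a to i, a number and any further letter numbered 63 of 35977. Clade A, the secreted antitrypsin-like serpins, had 25 of these rows and clade B, the mostly intracellular serpins, had 27. Clade E had 3, clades F and I had 2 each, and clades C, D, G and H had 1 each. On chromosome 12 there were 24 of the rows, on chromosome 13 there were 15 and on chromosome 1 there were 14. After a filter on low counts 30 serpins could be tested, among 14374 tested genes.

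Messenger RNA was sequenced in bulk liver from mice that had been injected with AAV9, an adeno-associated virus used to deliver genes. The Cre-miR122 group (replicates 1, 2 and 4) received AAV9-Tnnt2-Cre-miR122 and the Cre group (replicates 10, 11 and 12) received AAV9-Tnnt2-Cre. In both vectors the promoter of Tnnt2, the cardiac troponin T gene, drives Cre recombinase, and the Cre-miR122 version also holds target sites of miR-122, a microRNA abundant in hepatocytes. The comparison asks how that version affects the liver. Both groups had thus been given an AAV9 vector with Cre, and no liver without a vector entered the comparison. The labels name no strain, genotype, age, sex, dose or time after injection, and nothing in them ties each library to an animal of its own, so p-values measure the spread between these libraries, which may be partly technical. Cre replicate 10 stood apart in sex-linked genes, with 5 counts of Xist and 1676 of Ddx3y, where the other libraries had at least 15778 of Xist and at most 1 of Ddx3y. That is a male pattern in Cre replicate 10 and a female one in the other libraries. Sex was thus not balanced between the groups, and the fits used group alone.

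A serpin inhibits a protease by acting as bait. The protease cuts an exposed strand, the reactive centre loop, and is trapped on the inhibitor as the loop folds into it. Hepatocytes secrete most plasma serpins, among them antitrypsin, antithrombin and antiplasmin, while a few family members carry hormones or assist folding and inhibit no protease.

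Serpina1a to Serpina1e are near-identical copies that together held the largest part of the serpin counts, and a stretch of each is shown because it includes the loop and bears on how far the counts can tell copies apart. In a MAFFT alignment of the GENCODE M21 coding sequences (GRCm38, chromosome 12, minus strand), 86 of 1239 aligned positions varied, and pairs of copies were 96.3% to 98.5% identical. The 60-base window with the most variable positions held 18 of them, against a median of 4 over 1180 windows, and the others lie elsewhere. It lies in the part that encodes the reactive centre, at coding bases 1101 to 1160 (1170 to 1229 in Serpina1a). Capitals mark bases that differ among the copies.
Serpina1a: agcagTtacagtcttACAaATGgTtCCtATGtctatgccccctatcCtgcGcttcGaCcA
Serpina1b: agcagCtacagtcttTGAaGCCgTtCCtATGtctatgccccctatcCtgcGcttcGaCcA
Serpina1c: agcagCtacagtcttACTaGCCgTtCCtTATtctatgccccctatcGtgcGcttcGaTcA
Serpina1d: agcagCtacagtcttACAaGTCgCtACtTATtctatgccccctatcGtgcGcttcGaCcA
Serpina1e: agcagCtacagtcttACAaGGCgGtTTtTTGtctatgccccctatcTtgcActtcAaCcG
The codon just before the shared tct was ATG in Serpina1a and Serpina1b, TAT in Serpina1c and Serpina1d, and TTG in Serpina1e. In human antitrypsin the bond that the protease attacks lies at this point.

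A promoter stretch of 60 bases from the RefSeq promoter table (GRCm38.p6, minus strand) is shown for the copies whose level was highest (Serpina1b) and lowest (Serpina1e) and for Serpina1d, with the motif GTTAAT in capitals. GTTAAT is a core of the sites bound by HNF1, a hepatocyte transcription factor.
Serpina1b (chr12:103738186-103738245): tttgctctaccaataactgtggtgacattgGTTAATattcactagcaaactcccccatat
Serpina1d (chr12:103773620-103773679): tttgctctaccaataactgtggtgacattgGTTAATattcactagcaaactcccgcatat
Serpina1e (chr12:103956946-103957005): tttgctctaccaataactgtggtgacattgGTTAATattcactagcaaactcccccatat
The stretches of Serpina1b and Serpina1e were identical, letter for letter, but they were cut around the motif. Its position from the annotated transcript start was -26 in Serpina1b, -16 in Serpina1d and -78 in Serpina1e. Of 53 serpin genes with a promoter in the table, 11 held GTTAAT on either strand (20.8%), against 8.24% of all 27025 genes in the table. A gene counted once if any of its promoters held the motif. The 11 included all 5 Serpina1 copies, whose near-identical promoter stretches are not independent cases. The others were Serpina3c, Serpina7, Serpinb3b, Serpinb3d, Serpinb8 and Serpini2, of which Serpinb3b and Serpinb3d had 0 counts in every library. A match is a run of letters and not a tested binding site.

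Serpin messages made up close to 2% of the counts in every library. The share was 2.09%, 1.92% and 1.91% in Cre-miR122 replicates 1, 2 and 4, and 1.92%, 2.08% and 1.98% in Cre replicates 10, 11 and 12. The means were 1.98 ± 0.103% with Cre-miR122 and 1.99 ± 0.0803% with Cre (SD, n = 3 each), so the groups overlapped and differed by less than their spread. In bulk tissue fewer cells of a type and less RNA per cell cannot be told apart.

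Levels between serpins were compared as CPM (counts per 1e+06 counts of the library) per kilobase of gene length. Over the tested serpins the mean level spanned 15144-fold. It was above 1000 CPM per kilobase for 5 genes, above 100 for 13 and above 10 for 19. Serpina1b stood first at 3403 ± 183 CPM per kilobase with Cre-miR122 and 3438 ± 65.4 with Cre. Serpina1c, Serpina1d and Serpinc1 followed at 1587, 1279 and 1084 CPM per kilobase over all 6 libraries, each with a range over libraries that did not overlap that of its neighbour. Serpina1a (1026) overlapped with Serpinc1, and Serpina3k (781) overlapped with Serpina1a and with the next gene, Serpina3n (505). Other genes' transcripts also hold 14.8% of the 100-base windows of Serpina1b, 58.5% of Serpina1c, 29.3% of Serpina1d and 42.8% of Serpina1a. For Serpinc1 the share was 0.0%. How reads that match several genes were counted is not given, so the order of the Serpina1 copies and Serpinc1 is uncertain. A lack of overlap between libraries does not bear on this. Serpini1, the gene of neuroserpin, an inhibitor of tissue plasminogen activator in the nervous system, was the lowest tested gene at 0.226 CPM per kilobase.

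**Figure D1:**
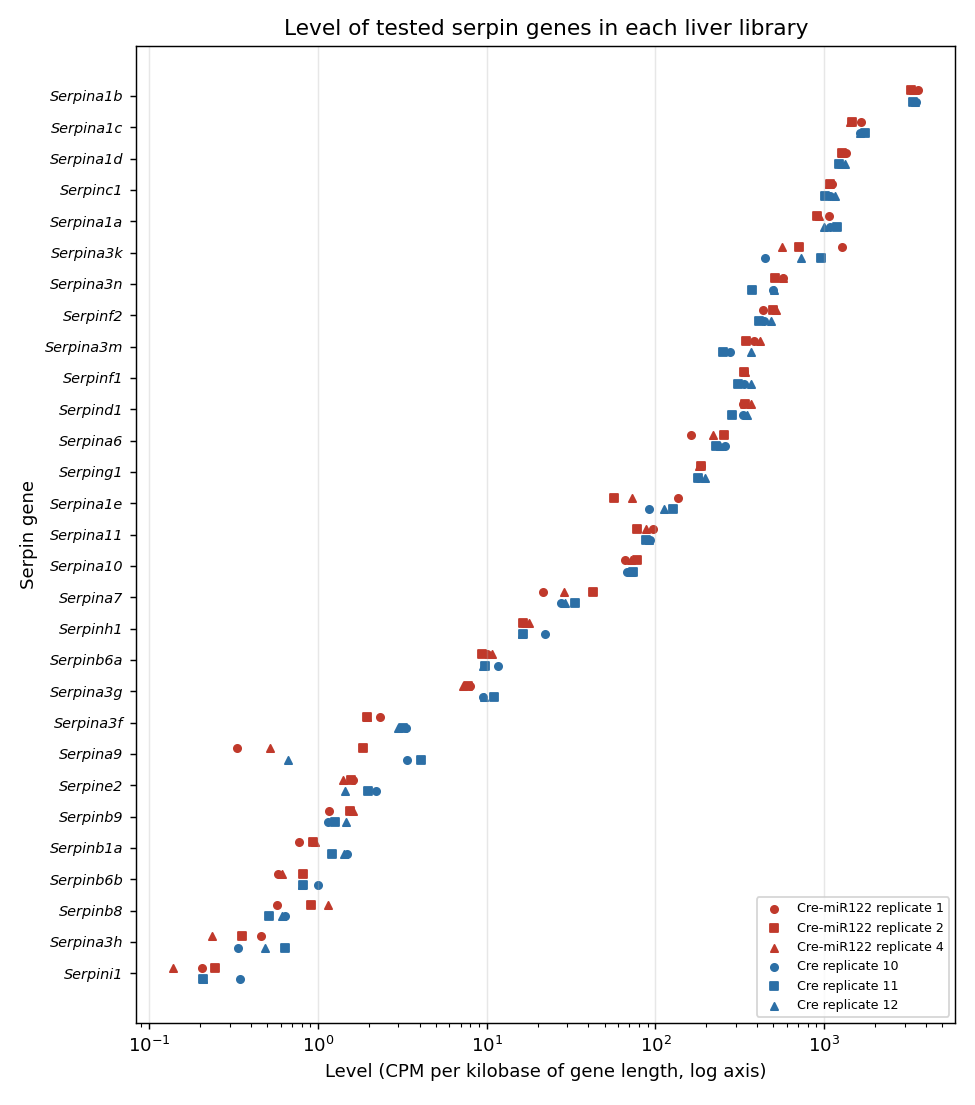
Level of 29 tested serpins in each library, as CPM per kilobase of gene length on a log axis, ordered by mean level. Red symbols are Cre-miR122 libraries and blue symbols Cre libraries, and the shape gives the replicate. The symbols of a gene lie close together for most genes and far apart for Serpina9, which runs from 0.330 to 4.10 CPM per kilobase.

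No serpin passed the edgeR quasi-likelihood test of Cre-miR122 against Cre at an adjusted p under 0.05. Of 30 tested serpins 0 were called, as were 0.0% of all tested genes, and the smallest adjusted p of a serpin was 0.816. DESeq2 and limma-voom also called 0 serpins, and of all 14374 genes they called 3 and 0. An unadjusted p under 0.05 was met by 7 of 30 serpins (23.3%), against 5.41% of all tested genes. The 2 with higher values in Cre-miR122 livers were Serpina3m and Serpinb8 (2.76% of all genes were higher), and the 5 with lower values included Serpina3f, Serpina3g, Serpinb1a and Serpina9 (2.65% of all genes were lower). Leaving out Cre replicate 10 gave a count of 4, leaving out Cre replicate 11 also 4, and leaving out Cre-miR122 replicate 4 gave 3. The libraries of the groups did not overlap for 4 of 30 serpins (13.3%), against 11.1% of all genes. Serpina3n was the 1 serpin wholly higher in Cre-miR122 livers (5.7% of all genes), and Serpina3f, Serpina3g and Serpinb1a were the 3 wholly lower (5.44% of all genes).

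The log2 fold change, Cre-miR122 over Cre, was above 0 for 12 tested serpins and below 0 for 18, with a median of -0.051, against -0.0029 over all tested genes. It was within 0.2 of 0 for 16 serpins. Among the 12 serpins of highest level per kilobase it ran from -0.19 to 0.35, and 13 of the other 18 tested serpins lay below 0. The median variation between libraries was higher for the serpins than for all tested genes, in a comparison not matched for level. The median coefficient of variation over the 6 libraries was 14.9%, against 11.5% for all tested genes. It exceeded 30% for 7 serpins (23.3%), against 9.04% of all tested genes. Those 7 included Serpina3h and Serpini1, at means of 0.858 and 0.708 CPM, but also Serpina3k at 1291 CPM. Serpina1b, the serpin of highest level, was at 3.63%.

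**Figure D2:**
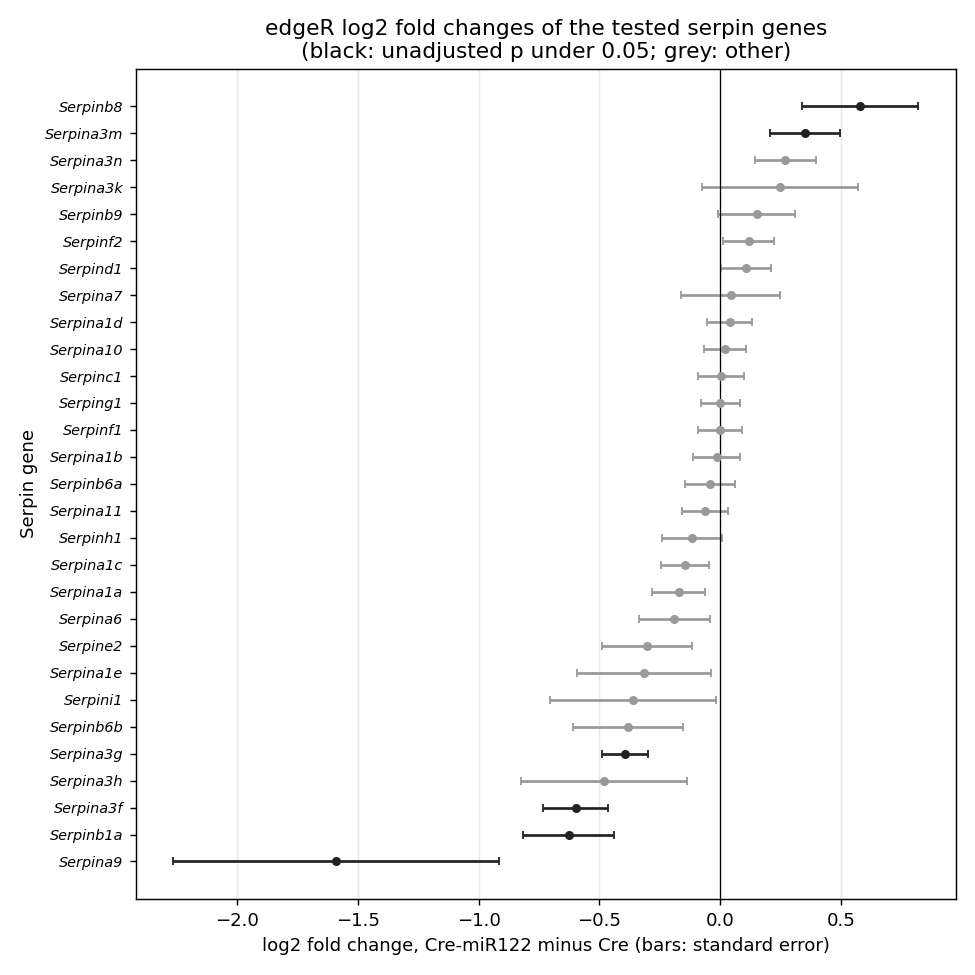
Log2 fold change (Cre-miR122 minus Cre) of 29 tested serpins from edgeR, with its standard error as a bar, ordered from highest to lowest. Black points have an unadjusted p under 0.05 and grey points do not; none passed the adjusted threshold. Serpinb8 lies at the top at 0.58 and Serpina9 at the bottom at -1.59 with the widest bar.

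Antitrypsin, the product of the Serpina1 copies, is the main inhibitor of neutrophil elastase in plasma. The 5 copies together stood at 11691, 10381 and 10502 CPM in Cre-miR122 replicates 1, 2 and 4, against 11280, 11523 and 11248 CPM in Cre replicates 10, 11 and 12. Cre-miR122 replicate 1 was above all the Cre libraries and the others were below them. The log2 fold change of the sum was -0.064 (SE 0.11). This sum does not depend on how reads were shared out among the copies. That matters because 58.5% of the 100-base windows of the Serpina1c transcripts, 42.8% of those of Serpina1a and 14.8% of those of Serpina1b also occur in another gene's transcripts. Reads that match several copies would be missing from the sum too if they were not counted, and their handling is not given.

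Among the single copies Serpina1b was at 5143, 4646 and 4760.4 CPM in Cre-miR122 livers, against 4978, 4796 and 4923 CPM in Cre livers, a log2 fold change of -0.015 (SE 0.099). Serpina1c (-0.14, SE 0.10), Serpina1a (-0.17, SE 0.11) and Serpina1d (0.039, SE 0.092) were each within 0.2 of 0 as well. Serpina1e, whose loop window differs from those of the other copies at 10 to 12 bases, varied most. It was at 188, 77.6 and 99.7 CPM in Cre-miR122 livers, against 126, 174 and 154 CPM in Cre livers, and its highest and lowest libraries were both Cre-miR122 ones. Its log2 fold change of -0.32 (SE 0.28) was -0.77 with Cre-miR122 replicate 1 left out and -0.077 with Cre-miR122 replicate 2 left out. Serpina1e made up 1.61%, 0.748% and 0.950% of the Serpina1 counts in Cre-miR122 livers, against 1.12%, 1.51% and 1.37% in Cre livers. Serpina1b held 44.0% to 45.3% of them in Cre-miR122 livers and 41.6% to 44.1% in Cre livers. Serpina1f, which lies beside them on the chromosome, had 0 counts in every library.

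As a share of all serpin counts the Serpina1 rows held 54.9%, 54.2% and 54.5% in Cre-miR122 livers, against 58.3%, 58.5% and 55.5% in Cre livers. The groups did not overlap, which was not tested, and the nearest libraries were 54.9% and 55.5%.

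The Serpina3 rows are the mouse relatives of human antichymotrypsin and were the other large block. They summed to 3972, 2843 and 2841 CPM in Cre-miR122 livers, against 2277, 2819 and 2908 CPM in Cre livers. Cre-miR122 replicate 1 was the highest library and Cre replicate 10 the lowest, and the groups overlapped (log2 fold change 0.27, SE 0.16, unadjusted p = 0.118). Serpina3k, Serpina3n and Serpina3m held nearly all of these counts, in proportions that moved widely between libraries of the same group. Serpina3k took 53.1%, 41.0% and 32.7% of them in Cre-miR122 livers, against 32.6%, 56.3% and 41.6% in Cre livers.

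**Figure D3:**
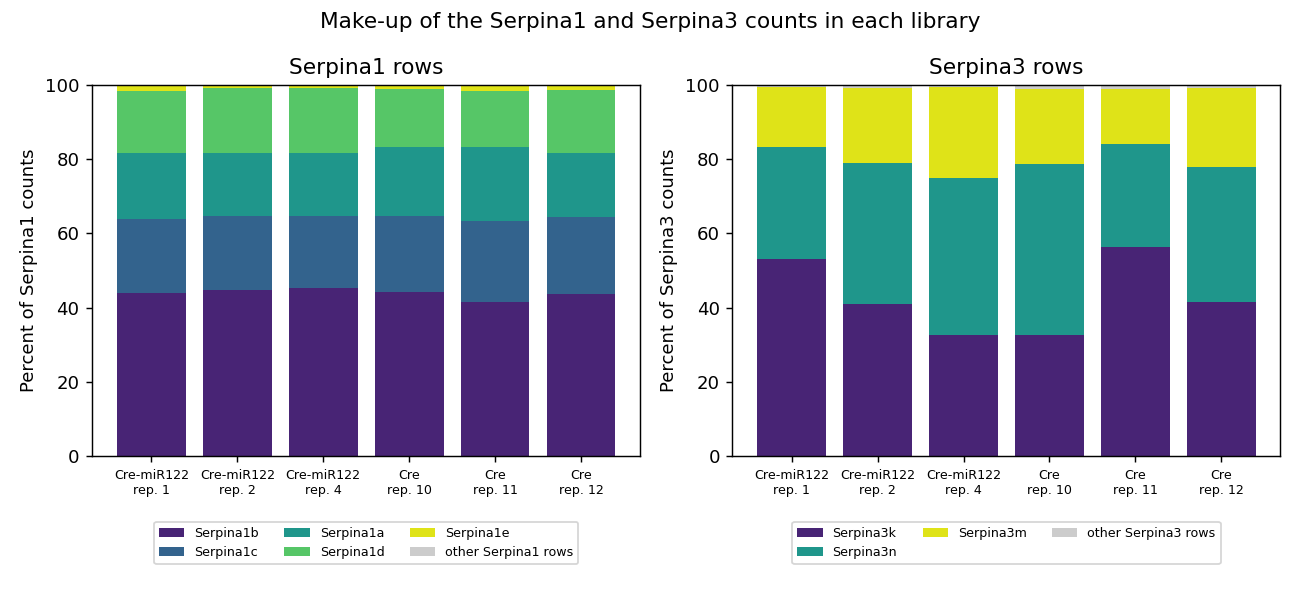
Percent of the Serpina1 counts (left) and of the Serpina3 counts (right) that fell on each gene, 1 stacked bar per library with Cre-miR122 libraries at the left of each panel. The Serpina1 bars look alike, with Serpina1b at 41.6% to 45.3%, while the Serpina3k part of the Serpina3 bars runs from 32.6% to 56.3%.

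Serpina3k, known in rodents as an inhibitor of tissue kallikrein, was at 2110.2, 1166 and 930.1 CPM in Cre-miR122 livers, against 741, 1587 and 1211 CPM in Cre livers. Its highest library had 2.85 times the level of its lowest, and the groups overlapped. Its log2 fold change of 0.25 (SE 0.32) turned to -0.17 with Cre-miR122 replicate 1 left out, and with Cre replicate 10 left out it was 0.0032. Serpina3n, an inhibitor of granzyme B in the mouse, was at 1202, 1078 and 1199 CPM in Cre-miR122 livers, against 1049, 784 and 1053 CPM in Cre livers. All its Cre-miR122 libraries were above all its Cre libraries, but by as little as 1078 against 1053 CPM, with a log2 fold change of 0.27 (SE 0.13, unadjusted p = 0.0611) that was 0.14 with Cre replicate 11 left out. Serpina3m was at 637, 577 and 692 CPM in Cre-miR122 livers, against 458, 417 and 617 CPM in Cre livers. Cre replicate 12 lay within the Cre-miR122 range, and the log2 fold change was 0.35 (SE 0.15, unadjusted p = 0.0377, edgeR adjusted p = 0.816). It was 0.24 with Cre replicate 11 left out and 0.54 with Cre replicate 12 left out. Serpina3h was at the edge of detection, 0.718 ± 0.232 CPM with Cre-miR122 and 0.999 ± 0.306 CPM with Cre.

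Serpina3f and Serpina3g, far less abundant members of the same cluster, lay on the other side. Serpina3g, whose product inhibits cysteine cathepsins inside cells of the mouse immune system, was at 15.6, 15.1 and 14.1 CPM in Cre-miR122 livers, against 18.6, 21.4 and 18.8 CPM in Cre livers (log2 fold change -0.40, SE 0.095, unadjusted p = 0.00224). Serpina3f was at 5.33, 4.49 and 4.50 CPM in Cre-miR122 livers, against 7.57, 7.31 and 6.80 CPM in Cre livers (log2 fold change -0.60, SE 0.13, unadjusted p = 0.00139). Every Cre-miR122 library was below every Cre library for both genes, and both kept a log2 fold change below 0 with any 1 library left out, from -0.43 to -0.33 for Serpina3g and from -0.68 to -0.56 for Serpina3f. Their edgeR adjusted p was 0.816. The genes lie next to each other in the cluster (Serpina3f at chr12:104214544-104221129 and Serpina3g at chr12:104236242-104241934, plus strand, GRCm38). Other genes' transcripts hold 3.40% of the 100-base windows of Serpina3f and 3.67% of those of Serpina3g. For 50-base windows the shares were higher, 10.6% and 15.9%.

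The promoters of Serpina3f and Serpina3g are printed with the matching stretch of Serpina3n, because these related genes lay on opposite sides of 0. The genes were thus picked by their fold changes, and a link between motif and fold change was not tested. Serpina3k and Serpina3m, which also lay above 0, are not shown. Capitals mark TTCNNNGAA, the form of site bound by STAT transcription factors, which was searched on both strands and reads the same way on each.
Serpina3f (chr12:104214383-104214472): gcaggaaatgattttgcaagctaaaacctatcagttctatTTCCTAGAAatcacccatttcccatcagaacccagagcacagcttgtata
Serpina3g (chr12:104236074-104236163): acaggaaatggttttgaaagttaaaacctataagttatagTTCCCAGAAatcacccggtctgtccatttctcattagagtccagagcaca
Serpina3n (chr12:104406545-104406634): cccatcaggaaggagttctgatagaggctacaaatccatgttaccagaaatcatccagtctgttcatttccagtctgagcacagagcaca
The stretches of Serpina3f and Serpina3g hold the motif and the Serpina3n stretch does not (RefSeq, GRCm38.p6, plus strand). In all, 8 of 53 serpin genes held it (15.1%), against 9.55% of all genes in the table. Among the 8 were Serpina11 and Serpinb6a, with log2 fold changes of -0.062 and -0.041. The match is a description of letters and says nothing of what binds there.

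Neutrophil and B cell markers had lower summed levels in the same libraries. The 10 neutrophil markers summed to 16.6 to 17.6 CPM in Cre-miR122 livers and to 19.3 to 24.4 CPM in Cre livers, with all 8 tested ones below 0. The 8 B cell markers summed to 16.7 to 22.7 CPM in Cre-miR122 livers and to 27.8 to 36.5 CPM in Cre livers, also all 8 below 0. The 10 Kupffer cell and macrophage markers, of which 8 lay below 0, ran from 487 to 633 CPM with Cre-miR122 and from 584 to 707 CPM with Cre, and the 10 T and NK cell markers, of which 9 were tested and 7 lay below 0, ran from 9.95 to 10.3 CPM with Cre-miR122 and from 8.96 to 14.0 CPM with Cre. No marker of these 4 lists was at 0 in all libraries. The 10 stellate cell and fibroblast markers, of which 8 lay below 0, ran from 965 to 1119 CPM with Cre-miR122 and from 887 to 1229 CPM with Cre. The 10 sinusoidal endothelial markers, of which 8 also lay below 0, ran from 362 to 431 CPM with Cre-miR122 and from 367 to 460.1 CPM with Cre. The 10 cholangiocyte markers, with Sct at 0 and 8 tested, of which 5 lay below 0, ran from 85.1 to 97.8 CPM with Cre-miR122 and from 80.2 to 93.4 CPM with Cre. The part of any of these in the values of Serpina3f, Serpina3g, Serpinh1, Serpine2 and the intracellular serpins was not tested. The hepatocyte markers, 9 of 10 with a row, summed to 150219 to 152834 CPM with Cre-miR122 and to 130262 to 156023 CPM with Cre.

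**Figure D4:**
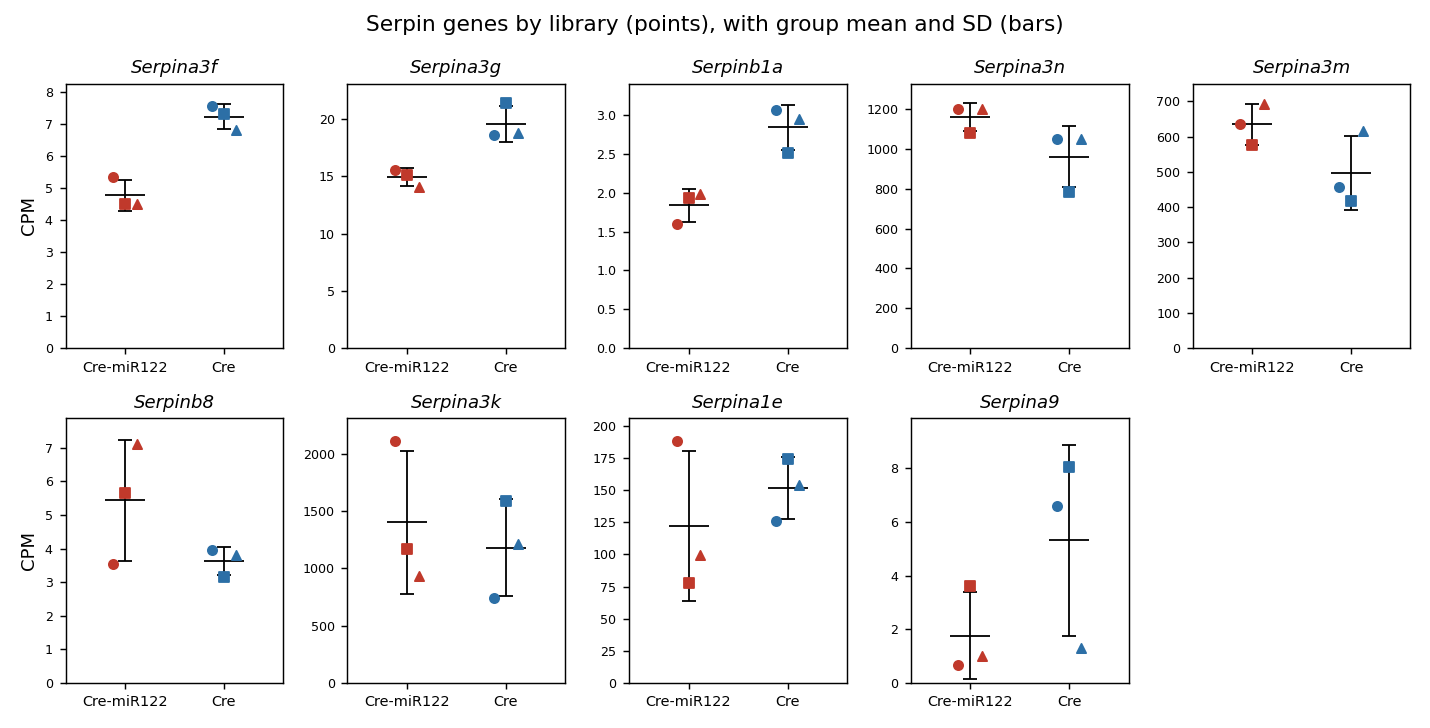
CPM in each library of 9 serpins, with Cre-miR122 at the left (red) and Cre at the right (blue) of each panel, circles, squares and triangles standing for the replicates in rising order of their numbers. Bars give the group mean and SD (n = 3). The red and blue points do not overlap for Serpina3f, Serpina3g, Serpinb1a and Serpina3n, and they overlap for the other genes.

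Serpinc1 encodes antithrombin, which blocks thrombin and factor Xa. It was at 2445, 2386 and 2366 CPM in Cre-miR122 livers, against 2379, 2249.5 and 2548 CPM in Cre livers, with all Cre-miR122 libraries inside the Cre range (log2 fold change 0.0038, SE 0.095). Serpind1, the gene of heparin cofactor II, another thrombin inhibitor, averaged 766 ± 41.5 CPM with Cre-miR122 and 711 ± 75.7 CPM with Cre (log2 fold change 0.11, SE 0.10). It was 0.025 with Cre replicate 11 left out, 0.063 with Cre-miR122 replicate 4 left out and 0.18 with Cre replicate 12 left out. Serpina10, whose product blocks factor Xa together with protein Z, averaged 121 ± 10.3 CPM with Cre-miR122 and 119.9 ± 5.14 CPM with Cre.

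Serpinc1 was also the only one of 29 tested serpins with an annotated 3′ UTR of at least 50 bases that held ACACTCC, the 7-mer that pairs with the miR-122 seed. That is 3.45%, against 9.28% of 12652 tested genes. The site starts at base 1336 of the longest UTR annotated for Serpinc1 in GENCODE M21 (chromosome 1, plus strand), of 3403 bases. Both numbers count from the first base of the stop codon. The site is shown in capitals with its flanks.
Serpinc1: tggcttcagccACACTCCttaggaattaa
The count table gives Serpinc1 a length of 2211 bases, less than this UTR alone, so its counts need not cover transcripts that hold the site.

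Serpinf2, the gene of α2-antiplasmin, the plasma inhibitor of plasmin, averaged 1060.4 ± 94.6 CPM with Cre-miR122 and 977 ± 85.4 CPM with Cre (log2 fold change 0.12, SE 0.11). It was 0.059 with Cre replicate 11 left out, 0.068 with Cre-miR122 replicate 4 left out, 0.19 with Cre replicate 12 left out and 0.19 with Cre-miR122 replicate 1 left out. Serping1, the gene of the inhibitor of complement C1, averaged 339.6 ± 5.46 CPM with Cre-miR122 and 339 ± 19.9 CPM with Cre, a log2 fold change of 0.00036 (SE 0.081).

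Serpine2, the gene of protease nexin 1, an inhibitor of thrombin and plasminogen activators, was at 3.49, 3.43 and 3.05 CPM in Cre-miR122 livers, against 4.80, 4.33 and 3.15 CPM in Cre livers, which overlapped by the Cre replicate 12 value (log2 fold change -0.30, SE 0.19). It was -0.17 with Cre replicate 10 left out and -0.46 with Cre replicate 12 left out.

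Among the serpins that inhibit no protease, Serpina6 encodes the corticosteroid carrier of plasma. It was at 262, 411 and 352 CPM in Cre-miR122 livers, against 414, 366 and 389 CPM in Cre livers, with Cre-miR122 replicate 1 lowest (log2 fold change -0.19, SE 0.15). It was -0.030 with that library left out and -0.34 with Cre-miR122 replicate 2 left out. Serpina7, the gene of thyroxine-binding globulin, was at 53.8, 106 and 71.8 CPM in Cre-miR122 livers, against 69.1, 83.1 and 72.3 CPM in Cre livers. Its Cre-miR122 libraries enclosed the Cre range on both sides (log2 fold change 0.044, SE 0.21). Serpinf1, which encodes the secreted factor PEDF, averaged 504 ± 4.85 CPM with Cre-miR122 and 505 ± 45.5 CPM with Cre. Serpinh1, the collagen chaperone of the endoplasmic reticulum, averaged 41.2 ± 2.16 CPM with Cre-miR122 and 44.7 ± 8.26 CPM with Cre, and its log2 fold change of -0.12 (SE 0.12) was 0.046 without Cre replicate 10.

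Clade B serpins lack a classical signal peptide and protect cells from their own or incoming proteases. Only 5 of 27 were tested, and 15 had 0 counts in every library. Serpinb1a, an inhibitor of neutrophil elastase and cathepsin G found in neutrophils, had 32, 40 and 41 counts in Cre-miR122 livers, against 62, 54 and 59 counts in Cre livers. That is 1.84 ± 0.211 CPM with Cre-miR122 and 2.84 ± 0.291 CPM with Cre, with no overlap (log2 fold change -0.63, SE 0.19, unadjusted p = 0.00818, edgeR adjusted p = 0.816). With 1 library left out the log2 fold change ran from -0.71 to -0.54. The neutrophil markers given above were lower in the same libraries.

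Serpinb8, an inhibitor of furin in human cells, was at 3.54, 5.65 and 7.11 CPM in Cre-miR122 livers, against 3.96, 3.17 and 3.80 CPM in Cre livers. Cre-miR122 replicate 1 lay within the Cre range and the other Cre-miR122 libraries above it (log2 fold change 0.58, SE 0.24, unadjusted p = 0.0386). It was 0.81 with Cre-miR122 replicate 1 left out and 0.34 with Cre-miR122 replicate 4 left out. Serpinb9, the granzyme B inhibitor of cytotoxic lymphocytes, averaged 7.75 ± 1.28 CPM with Cre-miR122 and 6.98 ± 0.862 CPM with Cre. Serpinb6a and Serpinb6b had log2 fold changes of -0.041 (SE 0.10) and -0.38 (SE 0.23).

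Serpina9 is expressed in germinal centre B cells in humans. It had 13, 75 and 21 counts in Cre-miR122 livers, against 133, 173 and 26 counts in Cre livers, and the groups overlapped through Cre replicate 12. The log2 fold change of -1.59 (SE 0.67, unadjusted p = 0.0420) was -2.67 with Cre-miR122 replicate 2 left out and -1.15 with Cre replicate 11 left out. The B cell markers summed to 16.7, 22.7 and 20.4 CPM in Cre-miR122 replicates 1, 2 and 4, against 30.8, 36.5 and 27.8 CPM in Cre replicates 10, 11 and 12. Apart from Cre replicate 12, the order of the libraries was the same for Serpina9 and for these markers. Their part in the Serpina9 values was not tested.

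Of the 33 serpins not tested, 17 had 0 counts in all 6 libraries, which allows up to 0.144 to 0.147 CPM in each at 3 counts, covering counting error only. They were Serpina1f, Serpina3j and 15 clade B genes, among them the Serpinb3 rows, known as squamous epithelial antigens in humans, and Serpinb5, the maspin gene. The other 16 had at most 10 counts in a library. They included Serpina12, the vaspin gene, with 33 counts over the 6 libraries, and Serpina5, the protein C inhibitor gene, which human liver expresses strongly, with 14.

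Genes around the serpins were described from 5 lists, and none of their members was called, as none of all genes was. Of 26 tested proteases that serpins target 15 lay above 0 and 11 below, with a median log2 fold change of 0.014. Gzma, the granzyme A gene of cytotoxic lymphocytes, was the 1 with an unadjusted p under 0.05, lower at -0.61 (SE 0.22). Of all genes 2.65% were lower at that threshold. Coagulation factor gene F9 was at 0.15 (SE 0.087) and Ctss, a cathepsin gene of macrophages, at -0.21 (SE 0.16). Of 21 other plasma inhibitors 9 lay above 0 and 12 below, with a median of -0.0095. Cst3, the cystatin C gene, was at 67.9, 70.6 and 64.7 CPM in Cre-miR122 livers, against 83.2, 79.4 and 76.4 CPM in Cre livers, lower without overlap (log2 fold change -0.23, SE 0.077, unadjusted p = 0.014). A2m was at -0.41 (SE 0.20) and Fetub at -0.22 (SE 0.11).

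Cofactors and clearance receptors of serpins had 9 of 13 tested members above 0 and 4 below, with a median of 0.033. Lrp1, the endocytic receptor that clears serpin and protease complexes, was at 629, 762 and 861 CPM in Cre-miR122 livers, against 578, 587 and 661 CPM in Cre livers (log2 fold change 0.30, SE 0.12, unadjusted p = 0.0356). The groups overlapped through Cre-miR122 replicate 1. Plaur was at -0.83 (SE 0.45).

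Genes of folding and quality control in the endoplasmic reticulum, through which secreted serpins pass, had 7 of 21 members above 0 and 14 below, with a median of -0.051. Of these, 7 were lower and 1 higher at an unadjusted p under 0.05, against 2.65% lower and 2.76% higher of all genes. The chaperone gene Hspa5 was at 465, 515 and 481 CPM in Cre-miR122 livers, against 594, 719.6 and 560.0 CPM in Cre livers (log2 fold change -0.36, SE 0.11, unadjusted p = 0.0092). The groups did not overlap, and Cre replicate 11 was highest. Derl3, a factor of protein export from the endoplasmic reticulum for degradation, was at -1.42 (SE 0.51) from few counts, 9, 13 and 14 in Cre-miR122 livers, against 14, 61 and 23 in Cre livers. Ern1, a sensor of unfolded proteins, lay higher at 0.42 (SE 0.13).

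Transcription factors and receptors that regulate serpin genes in hepatocytes had 15 of 26 members above 0 and 11 below, with a median of 0.039. At an unadjusted p under 0.05 there were 3 higher and 1 lower, against 2.76% higher and 2.65% lower of all genes. Stat3, the factor of the acute-phase response, was at 121, 123 and 153 CPM in Cre-miR122 livers, against 109.7, 94.7 and 119.5 CPM in Cre livers, higher without overlap (log2 fold change 0.29, SE 0.12, unadjusted p = 0.0341). Il1r1, the receptor of interleukin 1, was at 191, 109 and 114 CPM in Cre-miR122 livers, against 85.7, 109.8 and 88.4 CPM in Cre livers (log2 fold change 0.54, SE 0.20). The groups overlapped at 109 against 109.8 CPM. Cre-miR122 replicate 1, its highest library, was also the highest for Serpina3k, but the other libraries were ordered differently for Serpina3k. A link between Il1r1 and Serpina3k was not tested. Bcl6, a transcriptional repressor, was at -0.26 (SE 0.099).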

How the data were processed

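Liver mRNA-seq libraries, 6 in number, were made from total RNA, and the values the authors deposited are raw read counts, whole numbers without any scaling. The submitters' processing notes name STAR 2.7.9a, featureCounts 2.0.1 and the build GRCm38 (mm10). Not given in the sources used here are the strand setting, the annotation release and the handling of multi-mapping reads, which leaves counts of near-identical and overlapping genes uncertain. The table has 5 further columns of samples outside the labels, which were not used. Total counts were 20340994 to 20817837 per library. A chi-square test of the counts gave at least 5.76 per degree of freedom for each pair of libraries, so none was treated as a repeat of another. The test cannot tell libraries of separate animals from separate libraries of the same animal.

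All genes were fitted together with edgeR 4.0.16 in R 4.3.3 (TMM scaling, filterByExpr, quasi-likelihood F test, group alone, two-sided, Benjamini-Hochberg over 14374 genes, threshold 0.05). The common biological coefficient of variation was 11.8%. Standard errors come from the F statistic, and CPM uses TMM-scaled library sizes. Alternatives used DESeq2 1.42.0, limma 3.58.1 (voom), other scalings, filters and dispersions, near-identical copies summed, the 10 most abundant genes removed, and each library left out. Coding sequences were aligned with MAFFT 7.526, and promoters come from RefSeq. The fit was tested on simulated data whose changes were larger than any serpin log2 fold change of the main fit. That test does not show the power for smaller changes.

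The members, lists and tests were chosen with earlier results of these data known. Genes were named by a rule: the 12 serpins with the highest level per kilobase, those with an unadjusted p under 0.05, the 4 with the smallest p in each direction, the 4 most variable ones, a fixed set of known serpins and the 3 smallest p of each list. Serpina11, Serpina12, Serpina5, Serpina1f, Serpina3c, Serpina3h, Serpina3j, the Serpinb3 rows, Serpinb5, Serpinb6a, Serpinb6b, Serpinb9, Serpini1 and Serpini2 were named beside it after their values were seen. Some genes that the rule picks are not reported here.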

Additional observations from a re-analysis of the deposited data

How the results depend on the processing

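No serpin was called under any of 15 alternatives, the smallest adjusted p of a serpin being 0.454 (edgeR without Cre replicate 12). Of all genes DESeq2 called 3 of 14374, edgeR without a filter on low counts called 2 of 23347, and the other alternatives called 0. The count at an unadjusted p under 0.05, 7 as reported, was 6 of 30 serpins with DESeq2, against 3.62% of all genes. It was 4 of 30 with limma-voom, against 5.54% of all genes, and 4 of 20 tested serpins with near-identical copies summed, against 5.41%. The other alternatives that kept all libraries gave 5 to 8, and those with 1 library left out gave 3 to 8. The background was 2.90% of genes without Cre-miR122 replicate 4, where the serpin count was 3, and 10.49% without Cre replicate 12, where it was 8. The median log2 fold change of the serpins was 0.0076 over 46 serpins without a filter on low counts and -0.082 to -0.012 with 1 library left out. The difference in the serpin share of counts, -0.017 percentage points, was -0.039 without mitochondrial genes and -0.076 to 0.027 with 1 library left out.

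Serpina3f, Serpina3g and Serpinb1a had an unadjusted p under 0.05 in 14 of 14 alternatives that kept their own row, Serpina3m in 10 of 14, Serpinb8 in 9 of 15 and Serpina9 in 8 of 15. Of the named serpins' log2 fold changes 177 of 184 kept their sign in the alternatives that kept all libraries. The 7 that turned had main values near 0: without a scaling factor Serpinc1 (-0.016), Serpina10 (-0.0031) and Serping1 (-0.020), with limma-voom Serpinf1 (0.0017) and Serpina7 (-0.0077), without a filter Serpinf1 (0.0037), and with a CPM of at least 1 in 3 libraries Serping1 (-0.0020). With 1 library left out 121 of 138 kept their sign. The ranges that crossed 0 were -0.17 to 0.52 for Serpina3k, -0.25 to 0.25 for Serpina7, -0.19 to 0.046 for Serpinh1, -0.059 to 0.014 for Serpina1b, -0.039 to 0.052 for Serpinc1, -0.065 to 0.067 for Serpinf1, -0.046 to 0.077 for Serpina10 and -0.025 to 0.050 for Serping1. The cause was not tested. No paired analysis was possible because the groups share no replicate numbers. Serpins of few counts, such as Serpinb1a and Serpina9, and copies that share reads, such as Serpina1c and Serpina1a, are the least certain.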
